A study of Mus musculus with 4 samples.

Results

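Cadherins, catenins, claudins and the other proteins of cell junctions were followed at the level of RNA in mouse embryonic stem cells that carried either a wild-type or a G784E form of Smarca4, the ATPase of the BAF chromatin remodelling complex. The genes were chosen by name, with earlier results of these data known. They were 38 listed genes of adherens junctions, tight junctions, desmosomes, gap junctions and the apical membrane, out of 24428 genes counted. All 38 were in the count tables, and 36 passed the filter on low counts and were tested. The 2 that were not tested were Cldn3 and Cldn5. All cells were of strain 129SvEv, were grown in medium with serum and LIF, received no treatment, and expressed a wild-type Smarca4 tagged with GFP. Besides it, 1 group (heterozygous) expressed a V5-tagged G784E Smarca4 and the other (wild type, WT) a V5-tagged wild-type Smarca4, each with 2 libraries, 4 in all. The labels name neither clones nor separate cultures, so that p-values reflect how far these libraries differ, perhaps for technical reasons alone. The tables held 6226145 and 8895433 gene counts for G784E and 7027108 and 10083442 for WT.

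Adherens junctions join neighbouring cells through cadherins, whose outer domains bind each other and whose tails hold catenins that reach the actin cytoskeleton. Tight junctions seal the space between epithelial cells with claudins and MARVEL proteins such as occludin, held in place by plaque proteins of the ZO family. Desmosomes join cells through desmosomal cadherins, which plakophilins, plakoglobin and desmoplakin link to keratin filaments, and gap junctions are channels of connexins. Mouse embryonic stem cells grow as tight colonies held together by E-cadherin. The visceral endoderm and trophectoderm of the early embryo are polarised epithelia with junctions of their own.

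Of the 36 tested junction genes, 5 fell in G784E (Podxl, Dsp, Cldn6, Gjb5 and Cxadr) and 1 rose (Jam2), while the other 30 did not pass. The test was the quasi-likelihood test of edgeR, with a threshold of 0.05 on p-values adjusted by Benjamini-Hochberg. The share that fell was 13.9%, beside 1.89% of all 15763 tested genes, and the share that rose was 2.78%, beside 0.672%. The median log2 fold change (G784E over WT) of the 36 was -0.44, beside -0.0016 for all tested genes, and 29 of the 36 (80.6%) lay below 0, beside 50.1%. Both G784E libraries lay below both WT libraries for 23 of the 36 (63.9%), beside 19.4% of all tested genes, and above them for 2 (5.56%), beside 19.4%. As the list was chosen with earlier results of these data known, these shares describe it and are no independent test. The median was -0.57 between the libraries numbered 1 and -0.31 between those numbered 2. Without G784E replicate 2, 8 junction genes fell, and without WT replicate 2, 3 did, where 532 and 179 of all genes fell, beside 298 in the main test. Limma-voom also called 8 lower, and 364 of all genes. The call of the gene that rose ended when WT replicate 1 was dropped. With DESeq2, 5 fell and 1 rose.

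**Figure D1:**
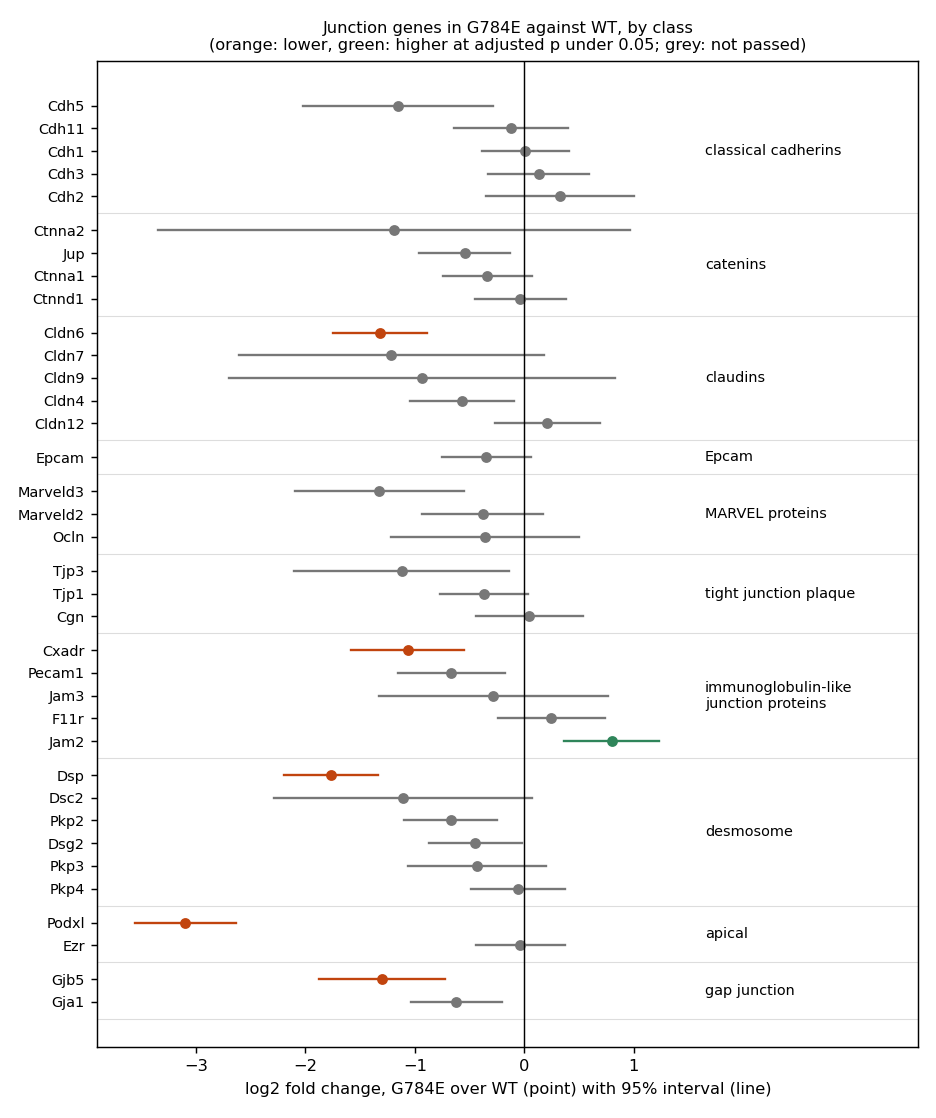
Log2 fold change of each tested junction gene (G784E over WT, x axis) with its 95% interval from edgeR, by class; orange points are genes that fell and green the gene that rose at an adjusted p under 0.05, grey those that did not pass. Podxl lies farthest to the left at -3.10, Cdh1 sits at 0.01, and Jam2 is the 1 green point, at 0.80.

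These changes stood beside lower RNA levels of endoderm markers and of part of the trophectoderm markers. The summed level of 13 primitive endoderm markers was 783 and 792 CPM (counts scaled to a common library size by the trimmed mean of M-values, TMM) in G784E and 6521 and 6859 CPM in WT. Of these markers 12 fell (92.3%, beside 1.89% of all tested genes), and none was at 0 in either group. The 9 trophectoderm markers summed to 69.0 and 66.3 CPM in G784E and 134 and 136 CPM in WT. Of them 4 fell (44.4%, beside 1.89% of all tested genes). Their log2 fold changes lay below 0 for 7 and above it for 2, at up to 0.65. Of these 2, 1 had an unadjusted p under 0.05 in edgeR. In DESeq2, 3 of the 6 trophectoderm markers with an adjusted p fell. None of the 9 pluripotency markers, including Pou5f1, Sox2 and Nanog, the 6 tested endothelial and blood markers or the 7 tested feeder fibroblast markers passed in edgeR, nor any of the 9, 3 and 4 of them with an adjusted p in DESeq2, nor any in limma-voom, and 1, 1 and 0 of them had an unadjusted p under 0.05 in edgeR. Among all 15763 tested genes, 1021 lower and 810 higher in G784E had an unadjusted p under 0.05 in edgeR. The pluripotency markers summed to 3195 and 3207 CPM in G784E and 2590 and 2918 CPM in WT. All 9 had log2 fold changes above 0, with a median of 0.23. For 6 of the 9 (66.7%) both G784E libraries lay above both WT libraries, beside 19.4% of all tested genes. The part of these cell types in the differences of the junction genes was not tested, and in such bulk RNA fewer cells of a type cannot be told apart from less RNA per cell. Olfactory receptor genes, a measure of stray reads, took 685 and 684 CPM in replicates 1 of G784E and WT before scaling and 282 and 193 in replicates 2. The 95th percentile of their level per kilobase of exon was 0.899, 0.482, 0.862 and 0.314 CPM in G784E replicates 1 and 2 and WT replicates 1 and 2. Ctnna2, Cldn3, Cldn5, Cldn9 and Dsc2 lay under it in at least 1 library, and the other 33 junction genes lay above it in all 4.

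Compared per kilobase of exon in WT, the 2 highest junction RNA levels were those of E-cadherin and α-catenin. Cdh1 came first at 209 ± 10.9 CPM per kilobase (mean ± SD, n = 2, as for all such values below), followed by Ctnna1 at 189 ± 15.3. The spread of these neighbours in the order overlapped. Next came Epcam at 129 ± 0.0885, Ctnnd1 at 125 ± 19.1, Tjp1 at 104 ± 3.06 and Cldn6 at 94.7 ± 4.67 CPM per kilobase. The SDs of Epcam and Ctnnd1 overlapped, as did those of Ctnnd1 and Tjp1. Gja1 (72.0 ± 4.93) and Ezr (71.9 ± 4.18) could not be ordered. At the other end stood Cldn3, Ctnna2 and Cldn5, at 0.778 ± 0.531, 0.539 ± 0.555 and 0.305 ± 0.228 CPM per kilobase, values that did not separate beyond their spread. In G784E, Cdh1 stood at 210 ± 7.48 and Ctnna1 at 150 ± 14.7 CPM per kilobase, Cldn6 at 37.9 ± 6.06, and Podxl at 4.01 ± 0.553 against 34.5 ± 0.992 in WT. Exon lengths came from an annotation of another build than the counts, so that the order is approximate. In that annotation 69.7% of the exon bases of Ctnnd1 are shared with Gm28635 on the same strand, and 30.3% of those of Jam3 with Gm48796 on the opposite strand, so that the levels and places of these 2 genes are uncertain.

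**Figure D2:**
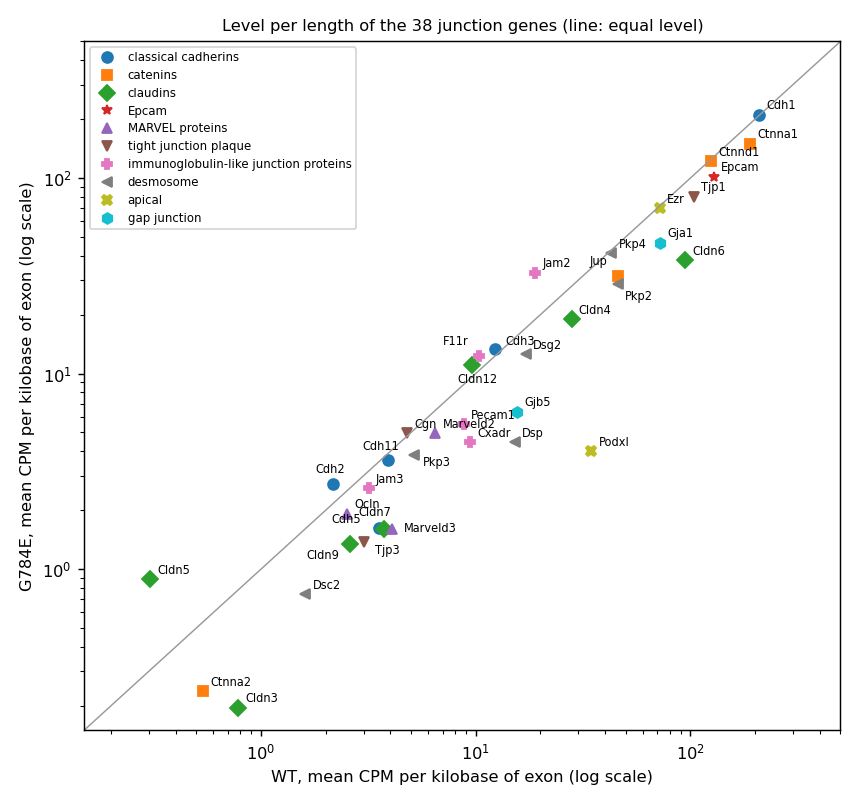
Mean CPM per kilobase of exon of the 38 junction genes in WT (x axis) and G784E (y axis), both on log scales, with 1 symbol per class and a line of equal level. Cdh1 lies on the line at the top right, Podxl (34.5 in WT, 4.01 in G784E) and Dsp (15.2 and 4.46) lie farthest below it among genes above 10 in WT, and Jam2 (18.9 and 32.8) lies above it.

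E-cadherin itself, encoded by Cdh1, differed between the groups by less than the spread between libraries. Its level was 908 and 955 CPM in the G784E libraries and 891 and 960 CPM in the WT libraries (replicates 1 and 2 in that order, here and below). The G784E values lay between the WT values. The log2 fold change was 0.01 (SE 0.19; 95% interval -0.39 to 0.41; edgeR, adjusted p = 1.0). Over 12 alternatives the value ran from -0.04 to 0.06, and its sign turned with no filter, without Rn45s and without either G784E replicate 2 or WT replicate 1. N-cadherin, encoded by Cdh2, which replaces E-cadherin when epithelial cells turn mesenchymal, stood at 15.9 and 11.2 CPM in G784E and 8.85 and 12.6 CPM in WT, with overlapping groups and a log2 fold change of 0.32 (SE 0.33). P-cadherin (Cdh3) stood at 46.3 and 71.0 CPM in G784E and 53.2 and 54.4 CPM in WT, also with overlap. The lowest log2 fold change among the 5 classical cadherins was that of the endothelial VE-cadherin gene Cdh5, at -1.16 (SE 0.42; adjusted p = 0.201 in edgeR). Its libraries held 9.98 and 2.94 CPM in G784E and 14.5 and 13.7 CPM in WT, so that the groups did not overlap but the G784E libraries lay far apart. Without G784E replicate 2 the log2 value was -0.48. Cdh5 passed when G784E replicate 1 was dropped (-2.24, adjusted p = 5.89e-05 in edgeR) and in limma-voom (-1.54, adjusted p = 0.0172). Osteoblast cadherin (Cdh11) had a log2 fold change of -0.12 (SE 0.25), at 20.8 and 19.8 CPM in G784E and 22.1 and 22.0 CPM in WT. Together the classical cadherins summed to 1001 and 1060 CPM in G784E and 990 and 1062 CPM in WT, of which Cdh1 made up 90.8% ± 0.468 and 90.5% ± 0.22 per unit length.

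None of the 4 catenin genes passed the test, and 1 had an unadjusted p under 0.05. Ctnnd1 (p120-catenin, which holds cadherins at the membrane) stood at 710 and 858 CPM in G784E and 717 and 890 CPM in WT. Its groups overlapped, and the log2 fold change was -0.04 (SE 0.20; 95% interval -0.45 to 0.38). Ctnna1 (α-catenin, the link to actin) stood at 520 and 597 CPM in G784E and 666 and 747 CPM in WT, without overlap (log2 fold change -0.34 with SE 0.20; adjusted p = 0.573 in edgeR). Plakoglobin, encoded by Jup and shared between adherens junctions and desmosomes, stood at 95.2 and 108 CPM in G784E and 143 and 154 CPM in WT. Both G784E values lay below both WT values, with a log2 fold change of -0.55 (SE 0.20; unadjusted p = 0.0119 and adjusted p = 0.208 in edgeR). The neural α-catenin gene Ctnna2 was near background, with 13 and 7 counts (2.13 and 0.825 CPM) in G784E and 44 and 9 counts (5.81 and 0.914 CPM) in WT, and its log2 fold change of -1.19 (SE 1.04) turned to 0.67 without WT replicate 1.

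Among the claudins, which form the seal of the tight junction, Cldn6 fell 2.49-fold. The claudin-6 gene, known from embryonic epithelia and stem cells, stood at 57.9 and 72.7 CPM in G784E and at 157 and 169 CPM in WT. The highest G784E library was less than 0.5 times the lowest WT library, and the log2 fold change was -1.32 (SE 0.21; adjusted p = 0.00032 in edgeR). It passed in each of 12 alternatives, at -1.47 to -1.15. The adjacent claudin gene in the genome, Cldn9, had a log2 fold change of -0.94 (SE 0.85) from 7 and 23 counts in G784E and 33 and 31 in WT. Cldn4 stood at 40.4 and 28.4 CPM in G784E and 50.3 and 51.3 CPM in WT, without overlap (-0.57 with SE 0.23; adjusted p = 0.278 in edgeR), and passed without G784E replicate 1 (-0.82, adjusted p = 0.0297). Cldn7 stood at 2.62 and 2.12 CPM in G784E and 5.41 and 5.58 CPM in WT (-1.21 with SE 0.67; adjusted p = 0.536 in edgeR). Cldn12 was the 1 tested claudin above 0, at 35.5 and 51.9 CPM in G784E and 37.5 and 38.4 CPM in WT (0.21, SE 0.23), with overlap, and its sign turned without G784E replicate 2 (-0.07). The 2 untested claudins had 3 and 0 counts (Cldn3) and 11 and 6 counts (Cldn5) in G784E, and 11 and 5 (Cldn3) and 5 and 2 (Cldn5) in WT, where 3 counts, the limit that a count of 0 allows, correspond to 0.305 to 0.491 CPM. Summed over the 7 claudins, the level was 140 and 159 CPM in G784E and 257 and 268 CPM in WT. Cldn6 made up 67.8% ± 1.44 of the claudin RNA per unit length in WT and 52.5% ± 5.47 in G784E, and Cldn12 6.90% ± 0.0815 and 15.3% ± 3.24.

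Promoter windows are shown for the 3 genes that fell and had an entry in the sequence table, as the sequence at their starts. RefSeq windows of 300 bases (250 before and 50 after the gene's start, build GRCm38.p6) were matched by symbol for 21 of the 38 junction genes, among them Cldn6, Dsp and Gjb5. They are printed 5′ to 3′ on the strand of the gene, with each CACCTG on either strand (read as CACCTG or CAGGTG), the E-box form known to bind Snail and Zeb repressors of E-cadherin, in capitals. Cldn6 lies at chr17:23679115-23679414 on the plus strand, Dsp at chr13:38151044-38151343 on the plus strand, and Gjb5 at chr4:127358115-127358414 on the minus strand. The counts were made on build mm9, to which these positions do not apply.
Cldn6: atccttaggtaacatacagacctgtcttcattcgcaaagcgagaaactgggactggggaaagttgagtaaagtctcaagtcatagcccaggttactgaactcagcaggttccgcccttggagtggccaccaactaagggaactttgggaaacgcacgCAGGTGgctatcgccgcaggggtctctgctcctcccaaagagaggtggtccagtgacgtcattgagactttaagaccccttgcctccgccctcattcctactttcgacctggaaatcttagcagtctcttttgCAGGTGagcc
Dsp: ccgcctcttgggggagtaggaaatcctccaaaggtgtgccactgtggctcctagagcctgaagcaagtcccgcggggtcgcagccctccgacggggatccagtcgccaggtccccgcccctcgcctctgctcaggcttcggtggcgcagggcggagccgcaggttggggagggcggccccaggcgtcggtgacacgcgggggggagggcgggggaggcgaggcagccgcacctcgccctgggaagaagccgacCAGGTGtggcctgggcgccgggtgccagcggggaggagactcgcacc
Gjb5: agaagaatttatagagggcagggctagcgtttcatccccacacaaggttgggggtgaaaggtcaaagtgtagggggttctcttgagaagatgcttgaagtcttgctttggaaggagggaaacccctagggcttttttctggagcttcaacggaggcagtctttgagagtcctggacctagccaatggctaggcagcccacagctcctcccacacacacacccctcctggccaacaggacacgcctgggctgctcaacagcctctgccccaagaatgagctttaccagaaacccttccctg
The Cldn6 window held CAGGTG at 93 bases before and 40 bases after the start, and the Dsp window held it 3 bases after the start. The Gjb5 window held none. Of the 29 windows, which belonged to 21 junction genes, 15 (51.7%) held the motif, beside 20.2% of all 32817 windows. Marveld2, Ocln and Tjp3 each gave more than 1 of the 15, so that windows are not separate genes. Windows of Epcam, Ocln, Cldn4, F11r and Tjp3, none of which passed the test, were among the 15. Cdh1, Podxl, Cxadr and Jam2 had no window among those matched. A second motif, GATAAG on either strand (read as GATAAG or CTTATC), a core bound by GATA factors, was in 3 of the 29 windows (10.3%), beside 7.45% of all, and in none of the 3 printed. The 2 motifs can share no more than 1 base.

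Epcam and the MARVEL and plaque genes of the tight junction did not pass the test. Epcam, an epithelial surface protein that stabilises claudins, stood at 196 and 222 CPM in G784E and 266 CPM in each WT library, without overlap (log2 fold change -0.35 with SE 0.20; adjusted p = 0.557 in edgeR). Of the MARVEL genes, Marveld3 had the lowest value. Its 4.75 and 5.54 CPM in G784E lay below the 14.1 and 11.8 CPM in WT, with a log2 fold change of -1.32 (SE 0.37; edgeR gave an adjusted p of 0.0632). It passed once G784E replicate 2 was dropped (-1.42, adjusted p = 0.0378 in edgeR). The tricellulin gene Marveld2, the most abundant of the 3 per kilobase, stood at 13.9 and 19.6 CPM in G784E and 21.7 and 22.1 CPM in WT, without overlap (-0.38, SE 0.27), while the occludin gene Ocln, with overlap, was at -0.36 (SE 0.42). Ocln stood at 5.40 and 10.8 CPM in G784E and 14.5 and 6.70 CPM in WT, and its sign turned without G784E replicate 1 (0.06) or WT replicate 1 (0.29). The plaque gene Tjp1, which encodes the scaffold ZO-1, stood at 529 and 614 CPM in G784E and 724 and 754 CPM in WT, without overlap (-0.37 with SE 0.20; adjusted p = 0.504 in edgeR). Tjp3 (ZO-3) stood at 4.91 and 3.77 CPM in G784E and 12.9 and 5.99 CPM in WT (-1.12 with SE 0.47; adjusted p = 0.317 in edgeR), and cingulin (Cgn) at 29.1 and 30.4 CPM in G784E and 32.2 and 25.6 CPM in WT (0.05, SE 0.24), with overlap.

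The 5 immunoglobulin-like junction proteins included 1 gene that fell and 1 that rose. Cxadr, the coxsackievirus and adenovirus receptor of tight junctions, stood at 22.3 and 41.2 CPM in G784E and at 61.5 and 72.4 CPM in WT. The groups did not overlap, though the G784E libraries differed by more than the WT libraries did. Cxadr was 2.09-fold lower in G784E (log2 fold change -1.07 with SE 0.25; adjusted p = 0.0166 in edgeR). The call ended when G784E replicate 1 (-0.68, with adjusted p = 0.0798 in edgeR) or WT replicate 2 (-0.95, with adjusted p = 0.112) was dropped, and the value was -1.57 without G784E replicate 2. Jam2, which encodes junctional adhesion molecule B, stood at 180 and 217 CPM in G784E and at 99.3 and 129 CPM in WT. Every G784E library lay above every WT library, 1.74-fold on average (log2 fold change 0.80 with SE 0.21; adjusted p = 0.0366 in edgeR). The call of Jam2 ended with RLE scaling (0.80, adjusted p = 0.0574 in edgeR), with no filter (0.76, adjusted p = 0.082), without the ribosomal gene Rn45s (0.77, adjusted p = 0.0558) and without WT replicate 1 (0.62, adjusted p = 0.617). Pecam1 (CD31, present in endothelium and in stem cells) stood at 20.8 and 24.9 CPM in G784E and 36.8 and 35.8 CPM in WT, without overlap (-0.67 with SE 0.24; adjusted p = 0.183 in edgeR). F11r (junctional adhesion molecule A) stood at 33.9 and 27.8 CPM in G784E and 26.3 and 25.6 CPM in WT, without overlap, and its relative Jam3 at 4.42 and 5.65 CPM in G784E and 6.73 and 5.58 CPM in WT, with overlap. They had log2 fold changes of 0.25 (SE 0.24) and -0.28 (SE 0.51). As a share of this class per unit length, Jam2 made up 37.2% ± 4.11 in WT and 56.9% ± 1.92 in G784E, and Cxadr 18.6% ± 0.746 and 7.61% ± 2.53.

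Of the desmosome genes, Dsp fell 3.40-fold and the other 5 did not pass. Dsp encodes desmoplakin, which ties the desmosome to keratin filaments. It stood at 40.7 and 44.8 CPM in G784E and at 151 and 140 CPM in WT, so that every WT library held more than 3 times the CPM of every G784E library. The log2 fold change was -1.77 (SE 0.21; adjusted p = 7.02e-06 in edgeR), and it passed in each of 12 alternatives, at -1.82 to -1.68. The simple keratin genes Krt8 and Krt18, whose products desmoplakin binds, were lower too (-1.55, adjusted p = 0.0267, and -1.94, adjusted p = 2.92e-05, in edgeR). They are 2 of the 4 trophectoderm markers that fell, while 2 of the 9 markers lay above 0. Krt8 and Krt18 were named after their values were seen. Plakophilin 2 (Pkp2) stood at 74.0 and 94.5 CPM in G784E and 136 and 132 CPM in WT, without overlap (-0.67 with SE 0.21; adjusted p = 0.0957 in edgeR). Pkp2 passed without G784E replicate 2 (-0.84, adjusted p = 0.0124 in edgeR), after scaling by the upper quartile (-0.68, with adjusted p = 0.0349) and by limma-voom (-0.68, with adjusted p = 0.0266). The desmosomal cadherin Dsg2 stood at 91.1 and 117 CPM in G784E and 134 and 149 CPM in WT (-0.45 with SE 0.21; adjusted p = 0.391 in edgeR), and Dsc2 at 3.93 and 2.94 CPM in G784E and 10.8 and 4.06 CPM in WT (-1.11, SE 0.57; adjusted p = 0.479). Neither had overlapping groups. Plakophilin 3 (Pkp3) stood at 9.82 and 13.5 CPM in G784E and 14.1 and 17.5 CPM in WT (-0.43, SE 0.30), without overlap. Plakophilin 4 (Pkp4) stood at 172 and 221 CPM in G784E and 181 and 227 CPM in WT, with overlap (-0.06, SE 0.21). Dsp made up 11.9% ± 1.21 of the desmosome RNA per unit length in WT and 4.91% ± 0.503 in G784E, while Dsg2 made up 13.4% ± 0.334 and 13.7% ± 0.0694.

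At the apical membrane, Podxl fell and Ezr did not pass the test. Podxl encodes podocalyxin, a heavily charged sialomucin that is bound through adaptors to ezrin and keeps free cell surfaces apart. It stood at 19.5 and 23.7 CPM in G784E and at 182 and 189 CPM in WT, 8.56-fold apart (log2 fold change -3.10 with SE 0.22; adjusted p = 1.63e-09 in edgeR). This was the largest difference of the 36, and it passed in each of 12 alternatives at -3.23 to -2.95. Ezr (ezrin, the link from apical membrane to actin) stood at 228 and 215 CPM in G784E and 218 and 237 CPM in WT, with overlap and a log2 fold change of -0.04 (SE 0.20; 95% interval -0.44 to 0.37). Without Podxl, the median of the remaining 35 tested junction genes was -0.43.

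The connexin gene Gjb5 (connexin 31.1, known from trophoblast and skin) fell 2.46-fold. It stood at 13.1 and 8.83 CPM in G784E and at 26.5 and 27.0 CPM in WT, without overlap (log2 fold change -1.30 with SE 0.28; adjusted p = 0.00858 in edgeR). With either WT library left out it did not pass (-1.31, adjusted p = 0.0618, without replicate 1 and -1.28, adjusted p = 0.0745, without replicate 2). Gja1 (connexin 43) was more abundant, at 141 and 174 CPM in G784E and 231 and 254 CPM in WT. Its groups did not overlap, and the log2 fold change of -0.62 (SE 0.20; adjusted p = 0.127 in edgeR) passed after scaling by the upper quartile (-0.63, with adjusted p = 0.0234), by limma-voom (-0.63, with adjusted p = 0.0372) and without G784E replicate 2 (-0.76, adjusted p = 0.0364).

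**Figure D3:**
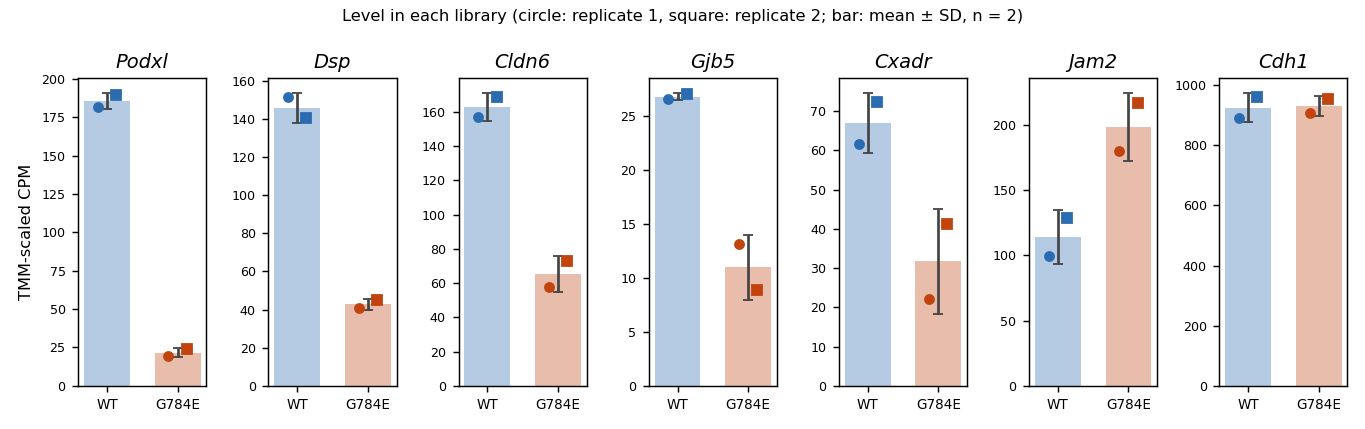
TMM-scaled CPM (y axis, a separate scale in each panel from 0) of the 6 junction genes that passed the test and of Cdh1, with 1 point per library (circle replicate 1, square replicate 2) and bars for the mean ± SD of n = 2. The WT and G784E points are apart in the first 6 panels, with G784E lower for 5 of these and higher for Jam2, and overlap for Cdh1 (891 to 960 CPM).

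Ratios within a library do not depend on the scaling between libraries. For every 1000 counts of Cdh1, the libraries held 21.4 and 24.8 counts of Podxl in G784E and 204 and 197 in WT. Dsp gave 44.8 and 46.9 counts in G784E and 170 and 146 in WT, and Cldn6 63.8 and 76.1 in G784E and 176 in each WT library. The same ratio for Jam2 was 198 and 227 in G784E and 111 and 134 in WT. The groups were apart for each of these 4 genes. They overlapped for Pkp4, at 189 and 231 in G784E and 203 and 237 in WT. Ezr, at 251 and 225 in G784E and 245 and 247 in WT, overlapped too. The 4 genes had already passed the test on these counts, and Cdh1 hardly differed between the groups. Their separation here follows from those calls and is no further support. With 2 libraries a group, an exact two-sided permutation test of such a ratio cannot go below p = 0.333, and none was made.

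Besides Cldn6 and Cldn9, 4 more pairs of junction genes are neighbours among protein-coding genes of the GRCm38.p6 RefSeq annotation. Cdh3 and Cdh1 were at 0.13 and 0.01, and Cdh11 and Cdh5 at -0.12 and -1.16. Ocln and Marveld2 were at -0.36 and -0.38, and of Cldn4 and Cldn3 only Cldn4 was tested. Of the 6 genes that passed the test, none but Dsp and Cxadr shares exon bases with another gene in GENCODE M21 (5.2% and 0.0703% of their exon bases, on the opposite strand).

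A further 60 genes of the same junctions, listed with the earlier results of these data known, were in the tables, and 49 were tested. Of these, 5 fell (10.2%, beside 1.89% of all tested genes), none rose (0 in edgeR, 0 of the 35 with an adjusted p in DESeq2, 1 in limma-voom, 1 at an unadjusted p under 0.05; 0.672% of all tested genes rose), and the median was -0.26, beside -0.0016 for all tested genes. Inadl (PATJ, a scaffold of the Crumbs polarity complex) fell from 54.3 and 39.8 CPM in WT to 19.8 and 17.3 CPM in G784E (log2 fold change -1.34 with SE 0.24; adjusted p = 0.00167 in edgeR). Ildr1, an angulin of tricellular junctions, fell from 14.9 and 22.1 to 5.56 and 6.13 CPM (-1.66, SE 0.33; adjusted p = 0.00479 in edgeR). The angiomotin family genes Amotl1 (102 and 115 to 49.6 and 49.4 CPM; -1.13, SE 0.21; edgeR, adjusted p = 0.00164) and Amotl2 (33.5 and 44.8 to 15.5 and 18.3 CPM; -1.21, SE 0.25; adjusted p = 0.00593) fell, as did the desmosome-associated gene Perp (112 and 111 to 63.3 and 66.9 CPM; -0.78, SE 0.20; adjusted p = 0.0345). Dropping WT replicate 1 ended the call of Inadl (-1.10, adjusted p = 0.0995 in edgeR), and dropping WT replicate 2 those of Ildr1 (-1.35, adjusted p = 0.307) and Amotl2 (-0.98, adjusted p = 0.195). Perp lost its call with RLE scaling (-0.77, adjusted p = 0.0552 in edgeR) and when G784E replicate 1 (-0.72, with adjusted p = 0.0524), WT replicate 1 (-0.77, with adjusted p = 0.291) or WT replicate 2 (-0.78, with adjusted p = 0.188) was dropped. Moesin (Msn), a relative of ezrin, stood at 172 and 177 CPM in G784E and 266 and 288 CPM in WT (-0.67 with SE 0.20; adjusted p = 0.0805 in edgeR). Msn passed in DESeq2 (-0.66, with adjusted p = 0.0109), by limma-voom (-0.67, with adjusted p = 0.02), after scaling by the upper quartile (-0.66, with adjusted p = 0.0137) and with the stricter filter (-0.67, with adjusted p = 0.0412). The cadherin gene Cdh6 was called lower with no filter (-1.69, adjusted p = 0.0467 in edgeR), by limma-voom (-1.95, with adjusted p = 0.0435) and when G784E replicate 1 was dropped (-2.53, with adjusted p = 0.000526). Cgnl1, a relative of cingulin, was called higher by limma-voom (0.69, with adjusted p = 0.0479) and when G784E replicate 1 was dropped (0.75, with adjusted p = 0.0335), and the desmosome-associated gene Evpl when G784E replicate 2 was dropped (1.12, with adjusted p = 0.0169). Msn, Cdh6, Cgnl1 and Evpl were named after their values were seen.

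A list of epithelial and mesenchymal factors, which holds markers such as Vim beside regulators, had 14 tested genes. None of them passed the test (0 in edgeR and limma-voom, and 0 of the 11 with an adjusted p in DESeq2). Esrp1 was the 1 gene with an unadjusted p under 0.05 in edgeR, and the median of the 14 was -0.12. The log2 fold changes of the 14 ran from -2.06 to 1.81, with SEs of 0.19 to 1.10. Both G784E libraries lay below both WT libraries for 3 (21.4%) and above them for 3 (21.4%). The share over all tested genes was 19.4% each way. Snai1, which encodes the E-cadherin repressor Snail, stood at 2.45 and 2.71 CPM in G784E and 2.64 and 4.98 CPM in WT. Zeb1 stood at 31.1 and 26.0 CPM in G784E and 17.4 and 22.6 CPM in WT (0.50 with SE 0.25; adjusted p = 0.455 in edgeR), and Zeb2 was at 0.41 (SE 0.34). The epithelial factor Grhl2 stood at 141 and 104 CPM in G784E and 124 and 180 CPM in WT, with overlap (-0.31, SE 0.22), and the splicing regulator Esrp1 at 64.0 and 82.5 CPM in G784E and 95.3 and 116 CPM in WT (-0.53, SE 0.21; adjusted p = 0.277 in edgeR). The mesenchymal marker Vim had a log2 fold change of -0.08 (SE 0.20). Zeb1, Zeb2, Snai1, Grhl2 and Vim were named after their values were seen.

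**Figure D4:**
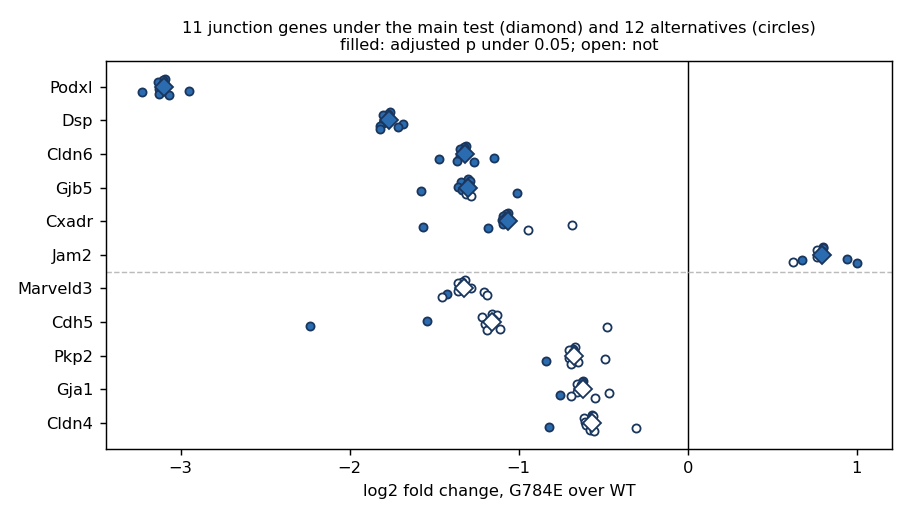
Log2 fold change (x axis) of the 6 junction genes that passed the test (above the dashed line) and of 5 others (below it). These 5 passed in at least 1 of the 12 alternatives shown. Values are from the main test (diamond) and the 12 alternatives (circles), filled where the adjusted p was under 0.05. The fit with the replicate number as a block, also an alternative, is not shown. Podxl, Dsp and Cldn6 are filled throughout, Jam2 stays above 0 with 8 of 12 alternatives filled, and Cdh5 has the widest spread, from -2.24 to -0.48.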

How the data were processed

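RNA-seq counts of 4 libraries were used, grouped by their labels. For every library the authors deposited a table of raw gene counts. CASAVA 1.8.2, Bowtie2 2.1.0, HTSeq, DESeq2 and build mm9 are named in the submitters' processing notes; the sources used here name neither their order nor the annotation or strand setting. Without strand, reads of overlapping genes on opposite strands cannot be told apart. Summary rows, 83.3% to 88.7% of each table (55.4% to 61.8% not unique), were left out.

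All genes passing filterByExpr (minimum count 10, total 15) were fitted in edgeR 4.0.16 (R 4.3.3) with TMM scaling, group as the only term and 2 residual degrees of freedom. The common biological coefficient of variation was 0.317. P-values from the quasi-likelihood test were adjusted by Benjamini-Hochberg over 15763 genes, with a threshold of 0.05. SEs are the log2 fold change over the square root of F, and 95% intervals use the fit's total degrees of freedom, unadjusted for the number of genes. Floors of 3 counts cover counting error only. Lengths are merged exons of GENCODE M21 (GRCm38). Fits were run on simulated counts as a check of the code. These counts gave every gene the common coefficient of variation and no effect of replicate number, so that they bear on none of the calls. Replicates of a group were not copies (chi-square per degree of freedom 9.22 in WT and 15.4 in G784E).

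By the naming rule every listed gene is accounted for, with values in every library for those past the threshold and, in each class, the highest and lowest log2 fold change and the highest level per kilobase; of the wider junction list, genes past the threshold are named. Members and lists were chosen with earlier results of these data known. Alternatives were DESeq2 1.42.0, limma-voom (limma 3.58.1), a robust prior, scaling by RLE or by the upper quartile, a filter of 1 CPM in 2 libraries and 50 counts in total, no filter, Rn45s left out, each library left out, and a replicate block.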

Additional observations from a re-analysis of the deposited data

How the results depend on the processing

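Podxl, Dsp and Cldn6 kept their direction and passed in each of the 12 alternatives without a replicate block. Where 1 library is dropped, its partner stands alone and its spread is taken to equal that of the opposite group. The number of junction genes that fell, 5 in the main test, ran from 3 to 8 with a library left out and was 8 in limma-voom. The number that rose, 1, was 0 with RLE scaling, with no filter and without Rn45s, and 0 to 1 with a library left out. Over all genes, 298 fell and 106 rose; with a library left out 156 to 532 fell and 29 to 307 rose, and limma-voom called 364 lower and 186 higher. Of the other junction genes, 2 to 5 fell and 0 to 1 rose with a library left out, and 1 (Cgnl1) rose in limma-voom. The median of the junction genes stayed between -0.62 and -0.26 in every alternative, and no scaling moved the median of all genes by over 0.1.

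Replicate numbers are shared between the groups but the labels tie them to no batch. Deviations of same-numbered libraries from their group means correlated at r = 0.49 over genes, which are not independent replicates. With the replicate number as a block, 13 junction genes fell (the 5, and 8 more: Cdh5, Ctnna1, Jup, Marveld3, Tjp1, Dsg2, Pkp2 and Gja1). Of the other junction genes 8 fell and 1 rose, and over all genes 658 fell and 546 rose. The block leaves fewer residual degrees of freedom than the 2 of the main test, so that these larger counts are not better supported.

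Of 466 values of single genes, 16 had the other sign, all of genes that did not pass. Cdh1 was -0.027 with no filter and -0.024 without Rn45s. With a library left out, the lowest and highest values were -0.042 and 0.064 for Cdh1, -0.20 and 0.42 for Cdh3, -1.99 and 0.67 for Ctnna2, -0.18 and 0.13 for Ctnnd1, -0.075 and 0.47 for Cldn12, -0.95 and 0.29 for Ocln, -0.11 and 0.22 for Cgn, -0.23 and 0.13 for Pkp4, and -0.095 and 0.026 for Ezr. The cause was not tested. DESeq2 gave no adjusted p for Ctnna2 and Cldn9.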
